A study of Rattus norvegicus with 65 samples.

Results

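Hypothalamic mRNA expression was compared between diet-induced obese male Wistar rats that underwent Roux-en-Y gastric bypass (RYGB), a weight-loss operation that leaves a small gastric pouch and reroutes the small intestine, and rats that underwent a sham operation, in the first of 2 experimental periods (batch A). The 11 RYGB-treated and 5 sham-treated animals of this period were chosen by their labels alone and make up 16 of the 65 libraries of the study, 1 library per animal. Both groups had been made obese on a high-fat diet before surgery and were then offered high-fat and low-fat food to choose from. Brains were taken 4 weeks after surgery and after 10 h of fasting, and the hypothalamus was isolated from the frozen brain as a whole, so that neither single nuclei nor cell types were separated. In such bulk tissue, fewer cells of a type and less RNA per cell cannot be told apart. Another 9 animals of the second period (batch B, 3 RYGB-treated and 6 sham-treated) received the same surgery and were used to set the same comparison beside the first.

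The hypothalamus receives hormonal signals on energy stores and translates them into hunger, satiety and energy expenditure. In the arcuate nucleus, neurons expressing Agrp and Npy drive feeding and neurons expressing Pomc restrain it, and both are regulated by leptin, the hormone of adipose tissue, which acts through its receptor and the JAK-STAT pathway, and by insulin, which acts through PI3K and Akt. At the base of the brain the hypothalamus borders on the meninges, whose fibroblasts, vessels and macrophages express genes that neurons and glia hardly express.

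Between 25913006 and 36539941 counts on genes were obtained per library, and levels are given as CPM, the count of a gene scaled to the size of its library. Libraries differed in tissue content. Cortex markers (15 genes) summed to 5526 CPM in sham replicate 2 and 4237 CPM in RYGB replicate 6, while the other 14 libraries lay between 427 and 929 CPM. Sham replicate 2 also had the lowest sum of markers of the paraventricular and supraoptic nuclei (25.7 CPM). Thalamus and habenula markers were highest in sham replicate 1 (1726 CPM), choroid plexus markers in RYGB replicate 6 (4273 CPM), and oligodendrocyte markers in RYGB replicate 11 (50759 CPM, against a highest sham value of 25288 CPM). Some of the results that turn on these libraries are given with and without them, and others only with them. The rats of 1 group were separate animals, so p-values set group differences against the spread between animals. With 1 library per animal, this spread includes differences in tissue content.

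No gene passed the test between RYGB- and sham-treated animals when the 16 libraries were fitted on their own. In edgeR's quasi-likelihood test, 0 of 20118 genes (0%) were higher and 0 (0%) were lower at a Benjamini-Hochberg adjusted p under 0.05, with or without the additional requirement of an absolute log2 fold change over 1. All adjusted p-values below come from this test unless another fit is named. The smallest adjusted p was 0.0637 and was shared by 112 genes. Without adjustment, 4161 genes had p under 0.05, of which 2455 were higher (12.2% of all tested) and 1706 were lower (8.48%) after RYGB. Counts of list members at an unadjusted p under 0.05 given below are to be read against these shares. Both groups were free of overlap in 66 genes that were higher (0.328%) and 21 that were lower (0.104%) in every RYGB-treated animal.

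The number of regulated genes depended on the model. With the same 16 libraries, DESeq2 gave 618 upregulated and 62 downregulated genes at the same thresholds. On simulated counts of this comparison, 18.6% of DESeq2 calls and 4.49% of edgeR calls by adjusted p were false. DESeq2 recovered 81% of the simulated 2-fold changes and edgeR 56%. The simulated counts held no libraries that differed in tissue content, so they cannot decide between the 2 methods here. When the spread was estimated from all 37 libraries of the first period, adding 7 body-weight-matched (BWM), 6 lean, 3 saline-treated and 5 PYY3-36 + liraglutide-treated animals, edgeR gave 229 upregulated (1.05% of 21775) and 65 downregulated genes (0.299%), or 309 higher (1.42%) and 220 lower (1.01%) by adjusted p alone. Some of the added libraries held much RNA of other tissue. In BWM animals, anterior pituitary markers reached 79985 CPM and striatum markers 7405 CPM, against highest sham values of 1212 and 1982 CPM. The effect of these libraries on the estimated spread was not tested. Leaving out 1 library changed the numbers of regulated genes strongly. In the fit of 16 libraries, the number of upregulated genes was 562 if RYGB replicate 11 was omitted, 383 if RYGB replicate 6, 261 if sham replicate 1, 87 if RYGB replicate 5, 1 if sham replicate 4 and 0 if any of the other 11. In the fit of 37 libraries, the number of upregulated genes was 3 when sham replicate 2 was omitted, 24 when sham replicate 5 was omitted and 621 when RYGB replicate 11 was omitted. Sets of libraries chosen after the data were seen were also left out of the fit of 16 libraries. Sham replicates 1 and 2 and RYGB replicates 3, 6 and 11 stood apart in tissue content or in the level of long relative to short genes. Without these 5 libraries, the fit gave 1253 upregulated and 98 downregulated genes. This set includes sham replicate 1 and RYGB replicates 6 and 11, each of which raised the number when omitted alone. Without sham replicate 2 and RYGB replicate 6 the fit gave 1 and 0. When RYGB-treated animals were compared in the fit of 37 libraries with the 3 saline-treated animals in place of the sham-treated ones, 0 of 21775 genes passed in edgeR and 252 had an unadjusted p under 0.05. Genes are therefore called upregulated or downregulated below only where the fit is named.

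**Figure D1:**
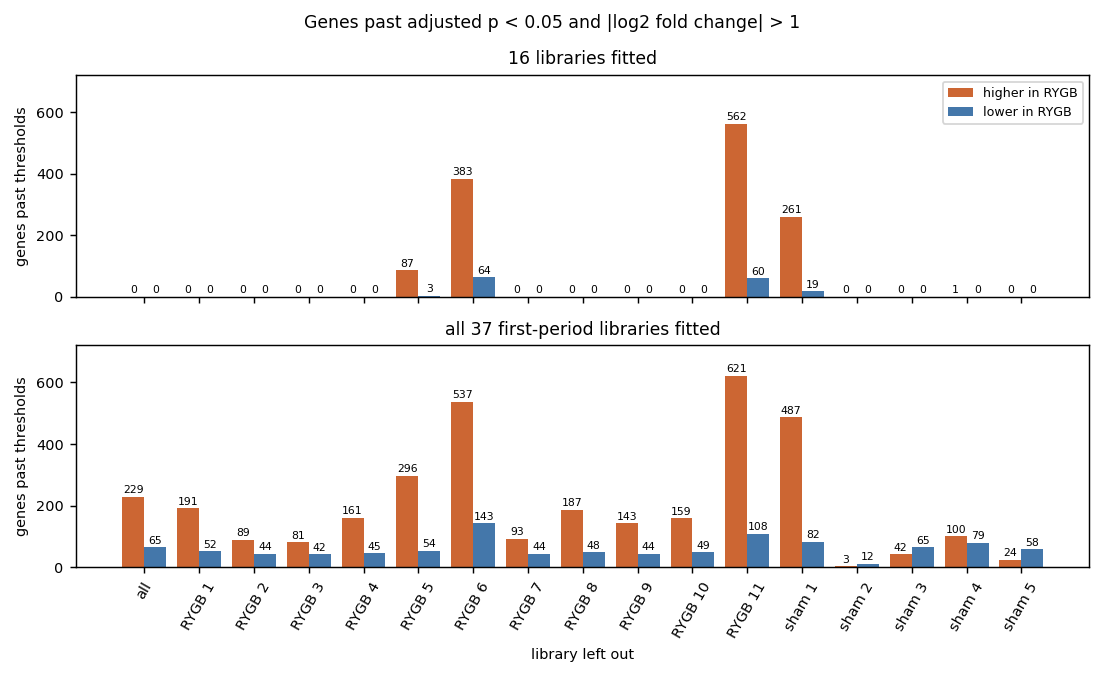
Number of genes past both thresholds (adjusted p under 0.05 and absolute log2 fold change over 1, edgeR) when all libraries are fitted or 1 library is left out, for the fit of the 16 RYGB and sham libraries (upper panel) and for the fit of all 37 first-period libraries (lower panel). Bars start at 0; the 16-library fit gives 0 genes in most settings and up to 562 without RYGB replicate 11, and the 37-library fit falls from 229 to 3 upregulated genes without sham replicate 2.

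Meningeal genes had the highest median log2 fold change of the 39 lists examined. Of the 15 measured members of the meninges list, 15 were higher at an unadjusted p under 0.05, with a median log2 fold change of 3.48 against 0.01 over all genes, and 11 were upregulated in the fit of 37 libraries. Igf2, a growth factor made by meningeal fibroblasts (chromosome 1, 215828102 to 215839081, Rnor_6.0), had 33.7, 39.5, 45.4, 48.0 and 51.6 CPM in the 5 sham-treated animals, and its lowest, median and highest levels in the RYGB-treated animals were 61.4, 279 and 1789 CPM. All 11 RYGB-treated animals exceeded the highest sham-treated one, with a log2 fold change of 3.55 ± 0.77 (SE) and an adjusted p of 0.0637, or 0.0274 in the fit of 37 libraries. Aldh1a2, which makes retinoic acid in the pia, was between 2.31 and 6.39 CPM after sham operation and between 3.37 and 191 CPM after RYGB, 10 of 11 animals being above the sham range (log2 fold change 3.94 ± 0.86).

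Col3a1, a fibrillar collagen, reached 535 CPM in RYGB replicate 3, while RYGB replicates 5 and 6 (7.63 and 6.001 CPM) lay within the sham range of 2.67 to 10.5 CPM. Ptgds, the prostaglandin D synthase of the leptomeninges, was between 263 and 560.1 CPM after sham operation and had a median of 2054 CPM after RYGB. The log2 fold change was 2.24 ± 0.64 for Dcn, the matrix proteoglycan decorin, and 4.20 ± 1.001 for Slc22a6, an organic anion transporter of the arachnoid. None of these genes passed the adjusted test in the fit of 16 libraries.

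The summed level of the 15 meninges genes was 402, 378, 514, 468 and 737 CPM in sham replicates 1 to 5. Among RYGB-treated animals it was 574 CPM at the lowest (replicate 5) and 854 CPM in replicate 6, the median was 2796.5 CPM, and the highest was 22004 CPM (replicate 3). It was thus above the sham range in 10 of 11 RYGB-treated animals and varied more within the RYGB group than between the group medians. High sums were also found in animals of the first period without bypass. They ranged from 345 to 17272 CPM in BWM, from 478 to 4603 CPM in lean and from 1580 to 9316 CPM in PYY3-36 + liraglutide-treated animals, and were 4062, 455 and 451 CPM in the 3 saline-treated animals. In the second period the groups overlapped and the medians had the opposite order, with 588 CPM after RYGB and 883 CPM after sham operation. RYGB-treated animals had 580.1 to 742 CPM and sham-treated animals 540.4 to 5058 CPM, 0 of 15 members had an adjusted p under 0.05 there, and the median log2 fold change was -0.74. The part of the amount of meningeal tissue per sample in these differences was not tested.

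**Figure D2:**
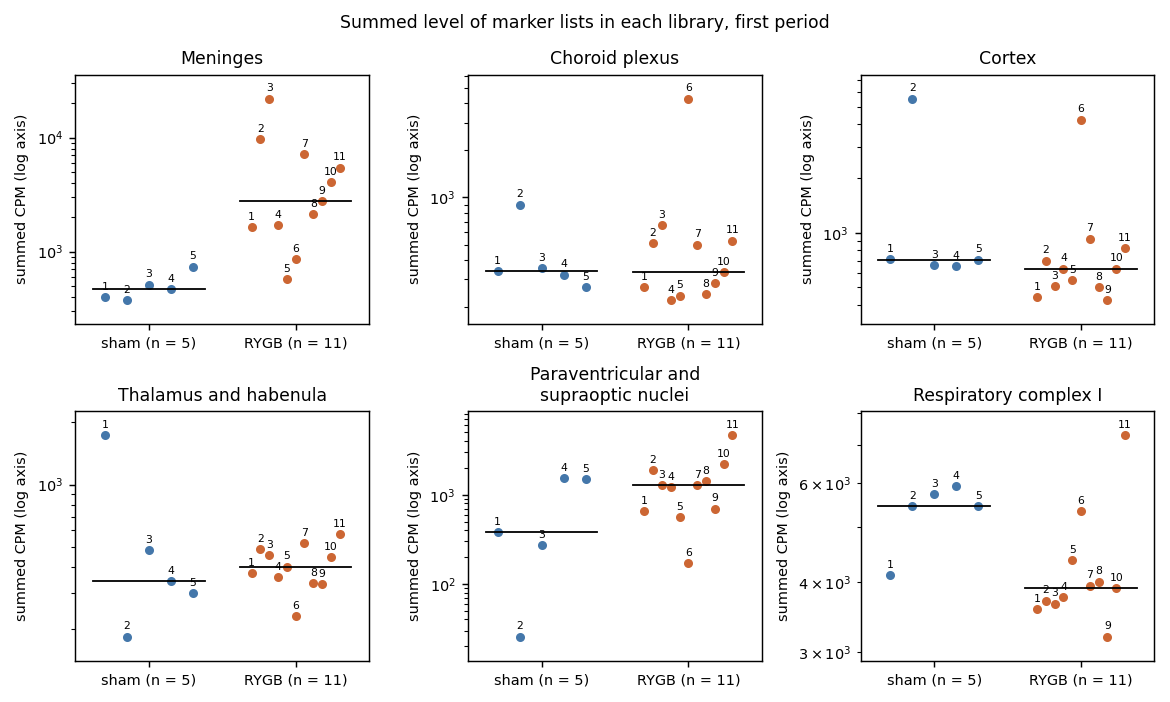
Summed CPM of the genes of 6 lists in each library (log axes), with sham-treated animals in blue and RYGB-treated animals in orange; numbers are replicate numbers and black lines are group medians. Meninges sums are above the sham range in 10 of 11 RYGB-treated animals, cortex sums stand apart in sham replicate 2 and RYGB replicate 6, thalamus and habenula sums in sham replicate 1, and complex I sums are lower in most RYGB-treated animals, with RYGB replicate 11 the highest.

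Of 43 measured collagens, laminins and related matrix genes, 25 were higher and 0 lower at an unadjusted p under 0.05 (median log2 fold change 1.06), and 6 were upregulated in the fit of 37 libraries. Their second-period median was 0.05 with 0 genes past the adjusted test, and 12 differed between the periods at an unadjusted p under 0.05. Over all genes, 1789 of 21195 did so. Lama4, a laminin chain of the vascular basement membrane, was 14.6, 9.23, 13.8, 15.7 and 14.9 CPM after sham operation and 16.3, 23.5 and 55.8 CPM (lowest, median and highest) after RYGB, without overlap. Of 14 endothelial and mural genes, 9 were higher (median 0.53, and 0.02 in the second period). Acta2, the smooth muscle actin of arterial walls, was 8.15, 7.41, 11.7, 7.10 and 8.37 CPM in sham-treated animals and 10.2, 103 and 532 CPM (lowest, median, highest) in RYGB-treated animals. Its 2 lowest values in the RYGB group, 10.2 and 12.4 CPM, were again those of replicates 5 and 6, and the log2 fold change was 4.003 ± 0.86 (adjusted p 0.0637, or 0.0271 in the fit of 37 libraries).

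Some genes known as markers of macrophages at the borders of the brain belonged to none of the lists and were chosen after their values were seen. Mrc1, the mannose receptor, was 0.828, 1.95, 1.43, 2.79 and 4.01 CPM in sham-treated animals and 3.44, 9.11 and 26.9 CPM (lowest, median, highest) after RYGB. Cd163, a scavenger receptor for hemoglobin, was without overlap (at most 1.80 CPM after sham operation and at least 1.95 CPM after RYGB). The log2 fold changes were 2.42 ± 0.51 and 2.60 ± 0.63, and both genes were upregulated in the fit of 37 libraries (adjusted p 0.0252 and 0.0269). Folr2 and Ms4a4a, also expressed by such macrophages, were without overlap as well, at low levels of at most 0.552 and 0.140 CPM after sham operation. In the second period, medians of Mrc1, Cd163, Folr2 and Ms4a4a were 3.96, 1.23, 1.11 and 0.398 CPM after sham operation. After RYGB they were lower, at 3.84, 0.766, 0.456 and 0.292 CPM. In first-period animals without bypass, median Cd163 was 2.33 CPM (saline), 3.12 CPM (lean) and 5.18 CPM (BWM). On the same scale it was 1.15 CPM after sham operation and 4.23 CPM after RYGB. Of 13 microglial genes, 4 were higher and 0 lower, against 12.2% and 8.48% of all genes, with a median log2 fold change of 0.13.

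Complement, cytokine and NF-kB genes were higher in 19 of 34 cases (median 0.83), and 3 were upregulated in the fit of 37 libraries. The median of the list in the second period was -0.09, and 10 of its genes differed between the periods at an unadjusted p under 0.05, against 1789 of 21195 over all genes. Tlr4, the receptor for bacterial lipopolysaccharide, had 0.700, 0.910, 1.05, 0.478 and 1.23 CPM in the sham-treated animals and 1.67, 2.28 and 3.94 CPM (lowest, median, highest) in the RYGB-treated animals. The groups did not overlap, RYGB replicate 5 (2.28 CPM) being at the median, and the log2 fold change was 1.48 ± 0.28 (p = 6.17e-05, adjusted p 0.0637, or 0.0269 in the fit of 37 libraries). In the second period it was 1.05 with an adjusted p of 0.177. Scaled with the other first-period groups, the Tlr4 median was 0.937 CPM after sham operation and 2.29 CPM after RYGB. It was 1.78 CPM in saline-treated, 2.26 CPM in lean and 2.79 CPM in BWM animals. Serping1, an inhibitor of complement activation, had a log2 fold change of 2.31 ± 0.62 and was highest in RYGB replicate 3 (161 CPM), the library with the most meningeal RNA. Tnfrsf1b, a receptor for tumor necrosis factor, had a log2 fold change of 1.51 ± 0.33. Hemoglobin and other red-cell genes were higher in 5 of 6 cases (median 1.67); their sum was 6.30 to 40.2 CPM after sham operation and 4.81 to 213 CPM after RYGB, and reads on the near-identical hemoglobin copies were divided between them by the counting.

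Among choroid plexus genes, 6 of 16 were higher (median 1.52), but the members disagreed. Ttr, transthyretin and the most abundant of them, was 57.0, 663, 18.9, 101 and 4.08 CPM after sham operation and 3.11, 27.1 and 3483 CPM (lowest, median, highest) after RYGB. The highest value came from RYGB replicate 6, and without this library the log2 fold change turned from 0.99 ± 1.62 to -2.99. Kl, the aging-related membrane protein klotho, did not overlap between groups (at most 1.15 CPM after sham operation and at least 1.30 CPM after RYGB; log2 fold change 2.42 ± 0.69). Aqp1, a water channel, had 10 of 11 RYGB values above the sham range and the lowest in replicate 5 (0.268 CPM).

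The single genes with the smallest p-values were named after their values were seen, since 0 genes met the rule for regulated genes. Sema3d, an axon guidance factor (chromosome 4, 19224378 to 19413519), was 3.31, 1.43, 2.20, 1.76 and 1.77 CPM in sham-treated and 3.77, 5.47 and 8.42 CPM (lowest, median, highest) in RYGB-treated animals (log2 fold change 1.41 ± 0.22, p = 6.77e-06). Smad4, the common mediator of TGF-beta and BMP signaling, was 32.1, 31.0, 29.6, 28.7 and 30.3 CPM after sham operation and 35.4, 43.7 and 49.4 CPM after RYGB (0.51 ± 0.08). Tmtc1, a mannosyltransferase, differed by 0.60 ± 0.10 and Wdr72 by 2.42 ± 0.45. In each of these 4 genes every RYGB-treated animal was above every sham-treated one, with the same adjusted p of 0.0637. Lypla2, a depalmitoylating thioesterase (chromosome 5, 154315033 to 154319629), was lower in every RYGB-treated animal, with 86.0, 95.3, 74.99, 81.0 and 82.2 CPM after sham operation and 56.9, 63.0 and 72.1 CPM after RYGB (log2 fold change -0.41 ± 0.07). Ruvbl2, a subunit of chromatin remodeling complexes, had at least 52.7 CPM after sham operation and at most 47.1 CPM after RYGB (-0.34 ± 0.07). The second-period log2 fold changes of Sema3d, Smad4, Tmtc1, Lypla2 and Ruvbl2 lay between -0.10 and 0.31, and none of them passed the test there. Wdr72 had a higher median after RYGB in the second period too, at low and overlapping levels. It was 0.0998, 0.250 and 0.506 CPM (lowest, median, highest) in sham-treated and 0.304, 0.474 and 0.627 CPM in RYGB-treated animals. First-period saline-treated, lean and BWM animals lay on the RYGB side of the sham median in these genes. Medians scaled with those groups, for sham, RYGB, saline, lean and BWM, were 1.82, 5.53, 4.22, 5.39 and 3.52 CPM for Sema3d. They were 31.1, 44.0, 39.0, 44.0 and 44.0 CPM for Smad4, and 84.4, 63.3, 62.6, 68.3 and 67.4 CPM for Lypla2. Those of Wdr72 were 0.134, 0.656, 0.259, 0.563 and 0.514 CPM.

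**Figure D3:**
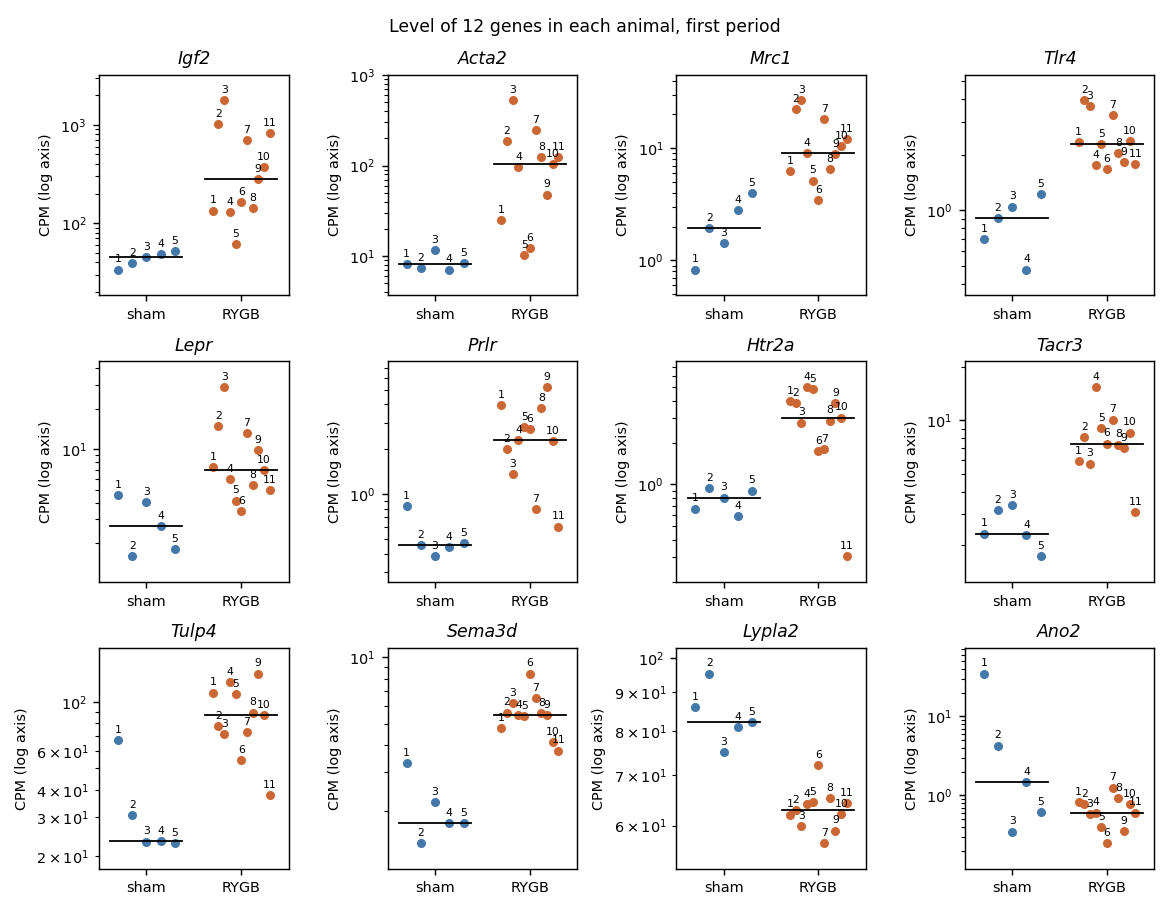
Level of 12 genes in each of the 5 sham-treated (blue) and 11 RYGB-treated animals (orange) in CPM on log axes; numbers are replicate numbers and black lines are medians. Igf2, Tlr4, Sema3d and Lypla2 do not overlap between groups, RYGB replicates 5 and 6 are the lowest of their group for Acta2 and Lepr, and the high mean of Ano2 after sham operation comes from replicate 1.

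Of 28 measured genes of leptin and JAK-STAT signaling, 14 were higher and 1 was lower at an unadjusted p under 0.05 (median log2 fold change 0.36), and 1, Prlr, was upregulated in the fit of 37 libraries. Lepr, the leptin receptor (chromosome 5, 120503475 to 120682281), was 4.58, 1.59, 4.05, 2.68 and 1.80 CPM in sham-treated animals. In RYGB-treated animals the lowest, median and highest levels were 3.48, 6.97 and 29.1 CPM. The lowest came from replicates 6 and 5 (3.48 and 4.15 CPM), which were within the sham range and had the lowest meninges sums, and the highest from replicate 3, which had the highest meninges sum. The part of meningeal RNA in the Lepr difference was not tested. The log2 fold change was 1.70 ± 0.49 (p = 0.00273, adjusted p 0.0896), and 0.0703 was its adjusted p in the fit of 37 libraries. In the second period it was 1.04 with an adjusted p of 0.158.

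Stat3, the transcription factor activated by the leptin receptor, was 46.1, 40.4, 55.4, 49.5 and 44.1 CPM after sham operation and 50.4, 65.7 and 111 CPM (lowest, median, highest) after RYGB. Its log2 fold change was 0.64 ± 0.18, and 10 of 11 RYGB values were above the sham range. Pias1, an inhibitor of activated STAT proteins, differed by 0.93 ± 0.27 and Lifr, the receptor for leukemia inhibitory factor, by 0.99 ± 0.41, sham replicate 1 being within the RYGB range for both. Both passed the adjusted test in the second period (1.36 with 0.0163 and 1.56 with 0.0171).

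Prlr, the prolactin receptor, which signals through JAK2 and STAT5, was 0.828, 0.455, 0.384, 0.441 and 0.469 CPM in sham-treated animals and 0.607, 2.29 and 5.21 CPM (lowest, median, highest) in RYGB-treated animals. Unlike Lepr, it was well above the sham range in replicates 5 and 6 (2.81 and 2.73 CPM) and lowest in replicate 11. Its log2 fold change was 2.28 ± 0.46 (adjusted p 0.0637, and 0.0294 in the fit of 37 libraries). Prlr is also a choroid plexus marker, and in the second period its log2 fold change was 0.83 with an adjusted p of 0.649.

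Of 26 genes of insulin, PI3K-Akt and mTOR signaling, 9 were higher and 0 lower (median 0.25), and 0 were upregulated in the fit of 37 libraries. Insr, the insulin receptor, was 26.4, 8.71, 11.9, 7.13 and 9.20 CPM after sham operation and 5.29, 22.6 and 28.1 CPM after RYGB. The high sham value (replicate 1) and the low RYGB value (replicate 11) made the groups overlap, with a log2 fold change of 0.73 ± 0.33 (adjusted p 0.225). Irs4, an insulin receptor substrate of the hypothalamus, was 2.83, 0.163, 9.35, 11.8 and 6.10 CPM and 6.29, 37.5 and 99.0 CPM, respectively, with 9 of 11 RYGB values above the sham range (2.73 ± 0.76, adjusted p 0.0853). Foxo1, a transcription factor that Akt restrains, differed by 1.06 ± 0.33. AMPK subunits and related energy sensors were divided, with 3 of 16 higher and 4 lower (median 0.05), against 12.2% and 8.48% of all genes. Against the 3 saline-treated animals, in the fit of 37 libraries, the log2 fold changes after RYGB were -0.21 for Stat3, -0.04 for Pias1, -0.30 for Prlr, -0.03 for Insr, -0.31 for Irs4 and -0.08 for Foxo1, of opposite sign to those against sham-treated animals. Lepr and Lifr kept their sign there, and no gene passed the test in that comparison.

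Receptors for neurotransmitters and neuropeptides differed individually. Of 45 receptors for neuropeptides and gut hormones, 7 were higher and 2 lower at an unadjusted p under 0.05, and of 41 monoamine and acetylcholine receptors 4 and 2. The counterpart for 44 glycine, GABA and glutamate receptor genes was 4 and 3. Over all genes these shares were 12.2% and 8.48%, and the lists had shares of this size or smaller apart from the first, with 7 of 45. Tacr3, the neurokinin B receptor, was 2.32, 3.15, 3.35, 2.28 and 1.73 CPM after sham operation and 3.08, 7.42 and 15.4 CPM (lowest, median, highest) after RYGB, 10 of 11 RYGB values being above the sham range and replicate 11 the exception. Its log2 fold change of 1.63 ± 0.29 (p = 3.34e-05) had an adjusted p of 0.0637, and 0.0215 in the fit of 37 libraries. Scaled with the other first-period groups, the Tacr3 median was 2.34 CPM after sham operation and 7.61 CPM after RYGB. It was 7.35 CPM in saline-treated, 7.89 CPM in lean and 4.76 CPM in BWM animals.

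Htr2a, a serotonin receptor, was 0.669, 0.943, 0.802, 0.588 and 0.902 CPM in sham-treated animals, and 10 of 11 RYGB-treated animals had more, up to 5.03 CPM, while replicate 11 had 0.303 CPM (1.98 ± 0.44, adjusted p 0.0637, and 0.0469 in the fit of 37 libraries). Htr1b and Htr5a differed by 0.98 ± 0.46 and 0.69 ± 0.34, with adjusted p-values of 0.242 and 0.260. Glra3, a glycine receptor subunit, was 0.764, 0.0650, 0.209, 0.294 and 0.144 CPM after sham operation and 0.355, 1.97 and 4.11 CPM (lowest, median, highest) after RYGB. It differed by 2.81 ± 0.62 and was upregulated in the fit of 37 libraries (adjusted p 0.0215), whereas Glra1 (0.69 ± 0.54) and Glra4 (0.61 ± 0.38) overlapped widely between the groups.

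Npy4r, the receptor for pancreatic polypeptide, was at low levels of up to 0.223 CPM after sham operation and between 0.142 and 0.945 CPM after RYGB (2.02 ± 0.58, adjusted p 0.0905). The melanocortin receptors Mc3r and Mc4r, which receive the signals of Pomc and Agrp neurons, had log2 fold changes of opposite sign, 1.21 ± 0.70 and -0.52 ± 0.36, and neither had an unadjusted p under 0.05. Nmbr, the neuromedin B receptor, was 4.71, 2.698, 8.13, 3.46 and 2.17 CPM after sham operation and 0.568, 1.36 and 2.25 CPM (lowest, median, highest) after RYGB. Only 1 RYGB-treated animal reached the sham range, the log2 fold change was -1.61 ± 0.32, and the gene was downregulated in the fit of 37 libraries (adjusted p 0.0135). Scaled with the other first-period groups, Nmbr medians for sham, RYGB, saline, lean and BWM were 3.51, 1.36, 1.43, 1.86 and 2.01 CPM. Those of Htr2a were 0.822, 3.05, 2.25, 5.35 and 1.81 CPM. Chrnb3, a nicotinic receptor subunit, had counts in only 2 sham-treated animals (0.255 and 0.105 CPM) and a median of 0.840 CPM after RYGB; it was at 0 in RYGB replicate 6.

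Feeding peptides did not pass the test. Of 26, 1 was higher and 0 were lower at an unadjusted p under 0.05 (median -0.08). Levels of a peptide varied widely between animals of the same group. Pomc was 3.69, 2.63, 1088, 195 and 69.3 CPM after sham operation and 1.63, 30.2 and 1062 CPM (lowest, median, highest) after RYGB. Agrp reached 9.38 CPM in 1 sham-treated and 19.5 CPM in 1 RYGB-treated animal and had a log2 fold change of 0.82 ± 0.96. Npy (-0.33 ± 0.43) and Cartpt (-0.02 ± 0.62), a satiety peptide, were within their error of 0. Avp, vasopressin, was 11.6, 2.28, 35.9, 298 and 624 CPM after sham operation and 16.5, 521 and 2749 CPM after RYGB (1.84 ± 1.10, adjusted p 0.350), and Oxt, oxytocin, differed by 0.45 ± 0.82. The lowest value of both peptides in either group came from the libraries with the most cortex RNA, sham replicate 2 and RYGB replicate 6. Hcrt and Pmch, peptides of the lateral hypothalamus that promote arousal and feeding, differed by -1.21 ± 0.89 and -0.31 ± 0.85; both were at 5.43 CPM or less in sham replicate 2. Trh, the thyrotropin-releasing hormone, was lowest in sham replicate 2 too (2.76 CPM) and differed by 0.51 ± 0.57. Sim1, a transcription factor of the paraventricular nucleus, had a log2 fold change of 1.72 ± 0.70 (adjusted p 0.186) and was at 0 in sham replicate 2.

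Genes of the respiratory chain had lower values after RYGB. Of 38 nuclear-encoded complex I genes, 14 were lower and 0 higher at an unadjusted p under 0.05, and 38 had a negative log2 fold change (median -0.33). Of 40 genes of complexes II to V, 14 were lower and 1 higher (median -0.33). No member had an adjusted p under 0.05 in the fit of 16 libraries, the smallest being 0.154 in complex I and 0.145 in the others, and 0 were downregulated in the fit of 37 libraries. Ndufs3, a core subunit of complex I, was 129, 179, 174, 176 and 165 CPM after sham operation and 87.0, 108 and 198 CPM (lowest, median, highest) after RYGB (-0.45 ± 0.17, p = 0.0147). Cox4i1, of cytochrome c oxidase, was 511, 769, 788, 781 and 747 CPM and 357, 459 and 968 CPM, respectively (-0.47 ± 0.19). In both genes sham replicate 1 was the lowest of its group, and RYGB replicate 11 was the highest of all animals. Ndufb3 (-0.50 ± 0.22) and Atp5e, a small subunit of ATP synthase (-0.59 ± 0.22), had the same order at both ends. With 1 library left out, each of these genes had an adjusted p under 0.05 in 1 of 16 fits. The smallest values were 0.0197 for Ndufs3, 0.0169 for Cox4i1, 0.0158 for Ndufb3 and 0.0111 for Atp5e. Without RYGB replicate 11, 1211 of 20027 genes were lower by adjusted p alone, against 0 with all 16 libraries.

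Of the subunits of succinate dehydrogenase, which links the citric acid cycle to the respiratory chain, Sdhb, Sdhc and Sdhd had log2 fold changes of -0.22 ± 0.13, -0.12 ± 0.13 and -0.12 ± 0.15 with unadjusted p-values of 0.125, 0.361 and 0.431. The catalytic subunit Sdha was the 1 gene that was higher (0.27 ± 0.11, p = 0.0203). The summed level of complex I genes was between 5449 and 5927 CPM in 4 sham-treated animals and 4105 CPM in replicate 1, and after RYGB it had a median of 3903 CPM with 5351 CPM in replicate 6 and 7289 CPM in replicate 11. The 3 saline-treated animals of the period, which had neither operation, had 3759, 3779 and 4572 CPM and thus lay within the range of the RYGB-treated animals. In the second period 24 of 38 complex I genes and 25 of 40 of complexes II to V had a lower level at an adjusted p under 0.05, against 3.25% of all genes, with medians of -0.46 and -0.48.

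Of 38 proteasome subunits, 6 were lower and 0 higher (median -0.18), against 8.48% and 12.2% of all genes. Cytosolic ribosomal protein genes had 1 of 78 higher and 0 lower, a median of -0.14 and 66 negative log2 fold changes, and in the second period 56 of 78 were lower at an adjusted p under 0.05 (median -0.60). The fold change moved with the combined exon length of the gene over all protein-coding genes. The median log2 fold change was -0.16 for 1213 genes with up to 1000 bases of exons and increased in each longer class, to 0.13 for 1315 genes with more than 8000 bases. Genes lower at an unadjusted p under 0.05 made up 14.01% of the shortest and 2.66% of the longest class, and genes higher made up 9.40% and 17.03%. The second period showed the same order, from -0.38 to 0.14.

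The difference between the medians of the longest and the shortest class, in log2 CPM relative to the mean of the 16 libraries, was between -0.24 and -0.52 in 4 sham-treated animals and 0.23 in sham replicate 1. It lay between -0.05 and 0.48 in 10 RYGB-treated animals and was -1.17 in RYGB replicate 11. Sham replicate 1 and RYGB replicate 11, which stood apart in the respiratory chain genes, thus also stood apart in the level of long relative to short genes. The RNA integrity number of all samples was above 7.2 per the study's methods, and values per library were not given in the sources used here. The part of exon length in the values of the short respiratory chain genes was not tested.

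**Figure D4:**
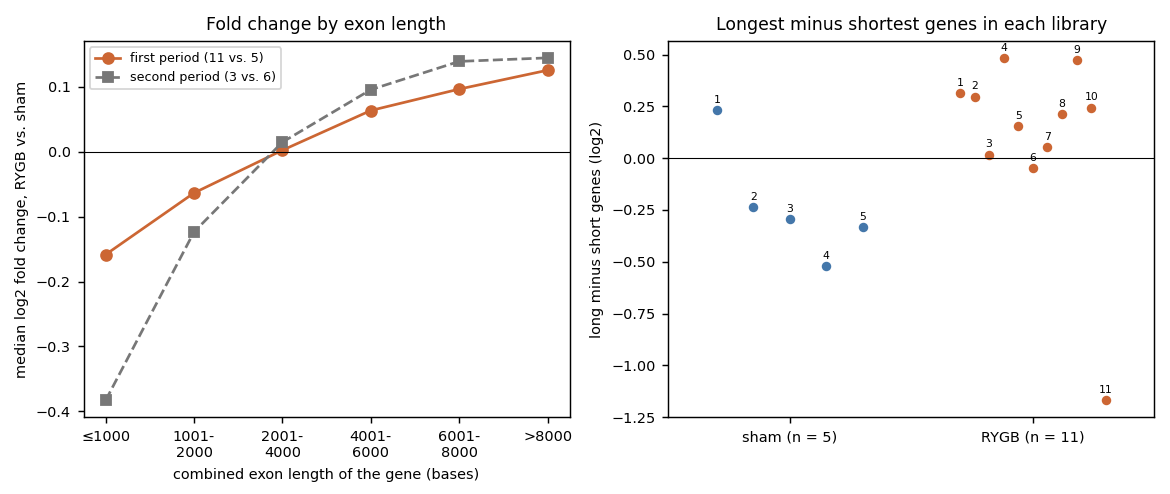
Left, median log2 fold change (RYGB vs. sham) of protein-coding genes in 6 classes of combined exon length in bases, for the first period (circles) and the second (squares). Right, median of the longest class minus median of the shortest class in each library of the first period (log2 scale), with replicate numbers; sham replicate 1 is the highest of its group (0.23) and RYGB replicate 11 the lowest of all (-1.17).

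Genes that were lower after RYGB with large fold changes included several that were set by 1 or 2 sham libraries. Of 16 thalamus and habenula markers, 7 were lower, and the median log2 fold change of the list turned from -0.37 to 0.31 without sham replicate 1. Prkcd, a protein kinase C of thalamic neurons, was 502 CPM in sham replicate 1, between 11.1 and 16.4 CPM in the other four, and between 16.7 and 62.9 CPM after RYGB. Its log2 fold change of -1.98 ± 0.71 became 0.99 without that library. Shox2, a transcription factor of the thalamus, was 60.8 CPM in the same library and at most 0.441 CPM in the other sham-treated animals, so that its value of -4.40 ± 1.20 became 1.44. Ano2, a calcium-activated chloride channel, was 34.6, 4.26, 0.349, 1.47 and 0.613 CPM after sham operation and 0.249, 0.607 and 1.26 CPM (lowest, median, highest) after RYGB. Chst9, a sulfotransferase, was highest in sham replicates 2 and 1 (30.8 and 9.39 CPM), and so was Lhx9, a transcription factor (15.8 and 36.4 CPM). Ano2, Chst9 and Lhx9 were downregulated in the fit of 37 libraries (adjusted p 0.00603, 0.0205 and 0.0203). Ano2 kept its sign without sham replicate 1, at -1.32.

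The second period gave an independent set of animals for the same comparison. There, 386 of 19279 genes were upregulated (2%) and 17 were downregulated (0.0882%). The number of upregulated genes was 1 when RYGB replicate 13 of the second period was omitted, 14 when its RYGB replicate 12 was omitted, and 210 to 580 when any of its other 7 libraries was omitted. By adjusted p alone, 3.91% of all genes were higher and 3.25% lower. Of the genes upregulated in the fit of 37 first-period libraries, 190 were also tested in the second period, and 17 of these were upregulated there, which is 8.95% of the former and 4.40% of the latter set. None of 48 downregulated genes was called in both. Fold changes had the same sign in 91 of the 190 upregulated genes (47.9%), and over all genes tested in the second period 48.5% had a positive value.

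Of the 15 meninges genes, 0 were among the 17 shared genes. Tulp4, a Tubby-like protein, was 66.9, 30.7, 23.3, 23.5 and 22.9 CPM after sham operation and 37.8, 86.8 and 134 CPM (lowest, median, highest) after RYGB, with log2 fold changes of 1.39 ± 0.31 in the first and 1.24 in the second period. Peg10, an imprinted retrotransposon-derived gene, was 5.57, 0.325, 3.38, 4.01 and 2.17 CPM and 3.51, 33.0 and 135 CPM (3.88 ± 0.87, and 2.80 in the second period). Slc7a2, a transporter of cationic amino acids, differed by 1.88 ± 0.36 and 1.33. Scd4, a fatty acid desaturase, differed by 1.17 ± 0.25 and 1.56, and Rxra, the retinoid X receptor, by 1.30 ± 0.30 and 1.21. Negr1, a neuronal growth regulator located in a human obesity locus, was 23.6, 22.8, 10.5, 14.6 and 7.65 CPM after sham operation and 13.7, 41.2 and 55.8 CPM after RYGB (1.34 ± 0.31 and 1.09).

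The shared genes also included the cell adhesion molecule Ncam2 (1.15 ± 0.26 and 1.10), the protocadherin Pcdh11x (2.06 ± 0.49 and 2.01) and Glra3 (2.81 ± 0.62 and 3.11). The remaining named ones were Hspa13 (1.11 ± 0.26 and 1.07), a chaperone, Rbms3 (1.09 ± 0.26 and 1.18), an RNA-binding protein, Gna13 (1.49 ± 0.36 and 1.51), a G protein subunit, Sox6 (1.05 ± 0.26 and 1.17), a transcription factor, Lrrc58 (1.73 ± 0.44 and 2.12) and Kl (2.42 ± 0.69 and 2.701). Of the other 2, 1 carried a provisional symbol and 1 a symbol shared with another gene. In Tulp4, Scd4, Ncam2 and Hspa13, sham replicate 1 was above the lowest RYGB value, and RYGB replicate 11 was the lowest or next to the lowest of its group. The combined exon length of the 17 genes had a median of 2746 bases (range 1155 to 22900), against 2712.5 over all genes tested. Against saline-treated animals in the fit of 37 libraries, Peg10 (-0.08), Scd4 (-0.05), Negr1 (-0.12), Ncam2 (-0.08), Pcdh11x (-0.21), Hspa13 (-0.13), Gna13 (-0.10), Sox6 (-0.10) and Rxra (-0.01) had log2 fold changes of opposite sign to those against sham-treated animals. These values lay between -0.21 and -0.01, and no gene passed the test against saline-treated animals. Tulp4, Slc7a2, Glra3, Rbms3, Lrrc58 and Kl kept their sign there. The number 17 rested on single libraries: it was 1 without sham replicate 2 and RYGB replicate 6, and between 0 and 120 when 1 library of either period was left out.

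When the difference between the periods was itself tested over all 25 animals, edgeR found 0 of 21195 genes with an adjusted p under 0.05 (smallest 0.224), 1789 genes had an unadjusted p under 0.05 (874 or 4.12% with a higher and 915 or 4.32% with a lower fold change in the first period), and DESeq2 found 118. All 15 meninges genes had an unadjusted p under 0.05 in this test, with an adjusted p of 0.307 for Igf2. The named genes with the smallest p were Hcn2, a pacemaker channel (log2 fold changes of -0.32 in the first and 1.20 in the second period, adjusted p 0.224), Hnrnpm, a splicing factor (0.12 and -0.41, 0.224), Klrk1, a receptor of natural killer cells (5.68 in the first period and not tested alone in the second, 0.261), and Fads1, a fatty acid desaturase (-0.17 and 0.60, 0.279).

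**Figure D5:**
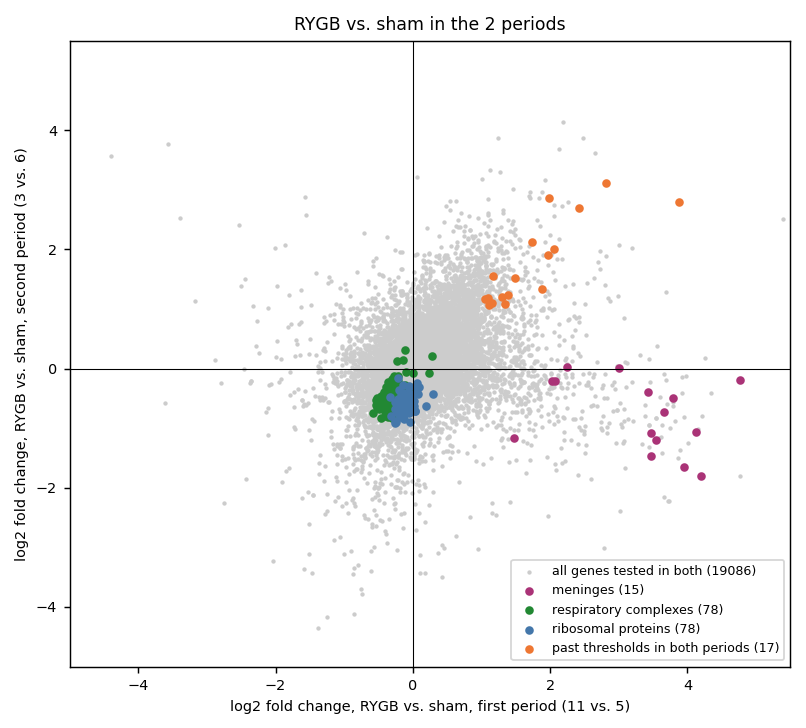
Log2 fold change (RYGB vs. sham) of 19086 genes in the first period (11 vs. 5 animals, horizontal axis) and in the second (3 vs. 6, vertical axis); 8 genes lie outside the axes. Meninges genes (purple) have high values in the first period and a median of -0.74 in the second, respiratory chain (green) and ribosomal protein genes (blue) have negative medians in both, and the 17 genes called in both periods, with the first-period call from the fit of 37 libraries (orange), lie at the upper right.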

How the data were processed

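Poly-A mRNA of single hypothalami was sequenced with 75 nt single-end stranded reads. The deposited table holds fractional read counts per gene (expected counts) that the authors made with cutadapt (1.16 in the submitters' processing notes, with later versions also named in the study's methods), STAR 2.7.2b and featureCounts 1.6.4 on Rnor_6.0 with RefSeq genes, dividing reads that map to several places or genes between them. Of the values above 0, 30.3% were not whole. Counts were rounded, genes with low counts removed (filterByExpr, minimum count 10, minimum total 15), libraries scaled by TMM, and RYGB- and sham-treated animals compared with edgeR 4.0.16 (robust quasi-likelihood test, R 4.3.3). Genes were called regulated past an absolute log2 fold change of 1 if p, after Benjamini-Hochberg adjustment, was under 0.05. Levels are TMM-scaled CPM. DESeq2 1.42.0, RLE size factors, other filters, other sets of libraries and a replicate block were tried as alternatives. Scripts were tested on simulated counts. Groups followed the labels. The groups compared and the gene lists were chosen with earlier results of these data known. Text names list members and, as stated, genes chosen by p after their values were seen, since the rule (regulated genes with the largest change) yielded none. Depth was 25913006 to 36539941 counts per library, and sequences were not used here. Some members of the lists are not reported here by name.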

Additional observations from a re-analysis of the deposited data

Results flagged for a closer look

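Single sham-treated animals stood apart from the other four in 26 of 113 tested levels and sums (Dixon's test at the 95% level), where chance gives about 1 in 20 independent groups. The levels were not independent, and some genes among them had been chosen with their sham values known, so the number is a description. Sham replicate 1 accounted for 14 of them. It was the highest of its group for Prkcd (502 CPM), Shox2 (60.8 CPM), Ano2 (34.6 CPM), Tulp4 (66.9 CPM), Insr (26.4 CPM), Sox6 (8.63 CPM), Htr1b (7.13 CPM), Prlr (0.828 CPM), the gene listed under the shared symbol Mcc (2.17 CPM), LOC103693389 (1.37 CPM) and the summed thalamus and habenula markers (1726 CPM). It was the lowest for Cox4i1 (511 CPM), Ndufb3 (66.5 CPM) and the summed complex I genes (4105 CPM).

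Sham replicate 2 was the highest for Ttr (663 CPM), Chst9 (30.8 CPM) and the summed choroid plexus (899 CPM) and cortex markers (5526 CPM), and the lowest for Lama4 (9.23 CPM). Sham replicate 3 was the highest for Acta2 (11.7 CPM), Pomc (1088 CPM) and the summed blood (40.2 CPM) and posterior and intermediate pituitary markers (1232 CPM). Sham replicate 4 was the highest for Serping1 (18.6 CPM) and Agrp (9.38 CPM), and sham replicate 5 for Slc22a6 (3.68 CPM). The test was not run on the group of 11 RYGB-treated animals, so it does not show whether single animals stood apart there.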

How the results depend on the processing

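The count of regulated genes depended on the model and on single libraries, and the cause was not tested. For the 16 libraries, edgeR gave 0 upregulated and 0 downregulated genes with TMM or RLE scaling and with any of 3 low-count filters. In the fit of 37 libraries, the comparison with saline-treated in place of sham-treated animals gave 0 and 0 (252 at an unadjusted p under 0.05). DESeq2 gave 618 and 62 (1446 by adjusted p alone), DESeq2 with shrinkage 412 and 43 (1390), the fit of 37 libraries 229 and 65 (529), and the fit of 65 libraries 565 and 115 (1903). Chosen after seeing the data, leaving out sham replicate 2 and RYGB replicate 6 gave 1 upregulated gene (1 by adjusted p), and leaving out the 5 libraries that stood apart gave 1253 and 98 (5578, and 8015 unadjusted). Leaving out 1 library gave 0 to 562 and 0 to 64 genes (0 to 2361 by adjusted p, 3142 to 6174 unadjusted). In the fit of 37 libraries this range was 3 to 621 and 12 to 143; without the 2 cortex-rich libraries it gave 26 and 20, and without the 5 it gave 937 upregulated genes. In the second period, downregulated genes numbered 138 with DESeq2, 34 with shrinkage, 6 without a filter and 9 with a stricter one, and leaving out 1 library gave 1 to 580 upregulated and 0 to 67 downregulated genes. The period difference gave 118 genes with DESeq2 and 0 to 0 (1116 to 2260 unadjusted) with 1 library left out. Genes called in both periods numbered 79 with DESeq2, 57 with 65 libraries, 1 without the cortex-rich libraries, 268 without the 5 libraries and 0 to 120 with 1 library left out.

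Signs turned as follows (log2 fold changes). Ttr was -2.96 with DESeq2, -1.34 with shrinkage, -1.08 without the cortex-rich libraries, -0.997 without the 5 libraries and -2.99 to 2.89 with 1 library left out. With 1 library left out, Npy was -0.58 to 0.0356, Pomc -2.13 to 1.18, Cartpt -0.32 to 0.32, Pmch -0.64 to 0.12, Shox2 -4.84 to 1.44, Prkcd -2.28 to 0.99, and the medians of 10 lists turned too, among them thalamus and habenula (-0.64 to 0.31), cortex (-1.06 to 0.42), feeding peptides (-0.29 to 0.19), monoamine and acetylcholine receptors (-0.24 to 0.28) and glycine, GABA and glutamate receptors (-0.13 to 0.11). Without the 5 libraries, Oxt was -0.24, Shox2 1.27 and Prkcd 0.69. Against saline-treated animals in the fit of 37 libraries, Prlr was -0.30, Ndufs3 0.0757, Ndufb3 0.19, Cox4i1 0.11, Atp5e 0.0761, Sdha -0.0097, Sdhc 0.0197, Sdhd 0.16, Npy4r -0.0455, Mc3r -0.34, Insr -0.0253, Sstr1 -0.20, Stat3 -0.21, Pias1 -0.0409, Irs4 -0.31, Foxo1 -0.0797, Agrp -0.44, Hcrt 1.02, Pmch 1.05, Scd4 -0.0460, Ncam2 -0.0843, Peg10 -0.0784, Rxra -0.0089, Hspa13 -0.13, Negr1 -0.12, Pcdh11x -0.21, Gna13 -0.10, Sox6 -0.10, Shox2 2.19 and Prkcd 0.48.

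Replicate numbers 1 to 5 occur in both groups, and the labels give no link between animals of the same number. Deviations of samples with the same number had r of 0.25, -0.03, 0.03, -0.21 and 0.11, the own number being best in 2 of 5. These few values cannot exclude a link. With the number as a replicate block, 0 genes passed (smallest adjusted p 0.1003, 3847 unadjusted), and Ttr was -1.77, Pomc 0.50, Cartpt 0.75, Pmch 0.62 and Prkcd 0.30.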
